A study of Mus musculus with 3 samples.

Results

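The cytochrome P450 genes examined here are the 92 mouse protein-coding genes, of 21887 in the RefSeq annotation of GRCm38 (mm10), whose symbol is Cyp followed by a family number, a subfamily letter and a member number. They were chosen by name, and 22 of them were then set apart as bound by the FOXF1 sites themselves, so the split into bound and unbound genes is a description and not a test. FOXF1 is a forkhead transcription factor of the lung mesenchyme and its vessels. ChIP-seq, the sequencing of DNA precipitated with an antibody to FOXF1, was done on whole lung of C57BL/6 mice, described as wild type, at embryonic day 18.5. Both biological replicates were pools of 3 lungs fixed in 1% formaldehyde, with 10 µg of chromatin and 7 µg of antibody for each precipitation, after micrococcal nuclease digestion and sonication. The control was a 2% input of the same tissue, strain and age, which enters only through the authors' peak calls. Whole lung mixes all cell types, so a site cannot be placed in a cell type, and expression data were not used here.

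The deposited lists held 107388 summits for replicate 1 and 61178 for replicate 2. A summit is the base with the highest signal of a peak, and its score is the authors' −log10 significance at that base. A shared site is a pair of summits, 1 from each replicate, that are each other's nearest and at most 100 bp apart, placed midway. There were 51013 of them, with a median distance of 13 bp between the paired summits. A gene was called bound when a shared site lay inside it or within 5 kb of an annotated end. Scores depend on sequencing depth, so they rank sites within a replicate and were not compared in size between replicates. They are given below as replicate 1 and then replicate 2.

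Cytochrome P450 enzymes are heme proteins that insert oxygen into their substrates, with electrons passed on by a reductase or by a ferredoxin. Families 1 to 3 act mainly on drugs and other foreign compounds, family 4 on fatty acids and eicosanoids, and the higher families on steroids, bile acids, retinoic acid and vitamin D. Many genes of families 2, 3 and 4 lie in tandem arrays that arose by duplication, and in the lung P450 enzymes are best known from the club cells of the airways, where Cyp2f2 and Cyp4b1 act on inhaled toxicants.

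A few promoter sequences place the sites and motifs described here. The RefSeq promoter table (GRCm38.p6) gives the 250 bases before and the 50 bases after a gene's start. It held 82 promoters of 72 members, 15 of them bound. A shared site lay within this window in 4 of the 82 promoters (4.88%), beside 20.5% of the promoters of protein-coding genes, and these 4 are shown because they place the site on the sequence, with capitals marking the 21 bases centred on the site.

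Cyp4b1 promoter, chr4:115647672-115647971, minus strand: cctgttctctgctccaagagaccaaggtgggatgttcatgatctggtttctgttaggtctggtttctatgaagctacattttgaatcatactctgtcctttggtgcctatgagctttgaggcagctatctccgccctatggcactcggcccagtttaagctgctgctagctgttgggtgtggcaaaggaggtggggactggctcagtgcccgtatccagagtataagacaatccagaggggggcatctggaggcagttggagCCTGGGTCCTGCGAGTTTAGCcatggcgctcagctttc
Cyp4f13 promoter, chr17:32947312-32947611, minus strand: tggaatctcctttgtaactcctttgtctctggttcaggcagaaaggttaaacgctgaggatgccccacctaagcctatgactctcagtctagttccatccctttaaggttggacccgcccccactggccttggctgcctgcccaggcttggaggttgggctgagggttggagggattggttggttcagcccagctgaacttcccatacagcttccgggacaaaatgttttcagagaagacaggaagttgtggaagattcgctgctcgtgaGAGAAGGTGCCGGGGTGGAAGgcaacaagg
Cyp20a1 promoter, chr1:60343050-60343349, plus strand: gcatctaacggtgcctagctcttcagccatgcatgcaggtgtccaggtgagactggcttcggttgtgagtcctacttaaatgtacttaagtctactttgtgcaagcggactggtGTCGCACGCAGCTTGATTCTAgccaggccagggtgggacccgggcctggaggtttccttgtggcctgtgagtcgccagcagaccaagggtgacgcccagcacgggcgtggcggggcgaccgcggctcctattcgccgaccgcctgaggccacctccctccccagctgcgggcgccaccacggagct
Cyp4v3 promoter, chr8:45333114-45333413, minus strand: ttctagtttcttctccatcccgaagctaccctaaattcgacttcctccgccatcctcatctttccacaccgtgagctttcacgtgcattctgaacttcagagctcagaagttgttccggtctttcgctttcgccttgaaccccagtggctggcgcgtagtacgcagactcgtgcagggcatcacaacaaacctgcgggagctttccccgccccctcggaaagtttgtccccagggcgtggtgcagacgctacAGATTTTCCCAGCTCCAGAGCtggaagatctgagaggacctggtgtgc

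The site lay 22 bases downstream of the start in Cyp4b1, 30 in Cyp4f13 and 12 in Cyp4v3, and 126 bases upstream in Cyp20a1. A pair of unbound promoters, picked as examples after their values were seen, holds the forkhead-type letters TGTTTAC (in capitals), as 7 of the 66 promoters of unbound members do.

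Cyp3a11 promoter, chr5:145879805-145880104, minus strand: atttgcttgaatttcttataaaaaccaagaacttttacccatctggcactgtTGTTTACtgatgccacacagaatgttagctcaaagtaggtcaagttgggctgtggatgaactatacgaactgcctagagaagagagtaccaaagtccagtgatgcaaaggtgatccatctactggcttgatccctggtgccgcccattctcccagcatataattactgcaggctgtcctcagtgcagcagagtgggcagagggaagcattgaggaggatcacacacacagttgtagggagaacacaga
Cyp2c38 promoter, chr19:39463026-39463325, minus strand: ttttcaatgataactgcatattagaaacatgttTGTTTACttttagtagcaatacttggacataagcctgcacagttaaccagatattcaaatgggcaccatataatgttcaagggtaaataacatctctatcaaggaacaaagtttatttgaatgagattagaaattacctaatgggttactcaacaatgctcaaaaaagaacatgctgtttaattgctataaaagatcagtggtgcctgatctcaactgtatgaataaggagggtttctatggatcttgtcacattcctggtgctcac

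In Cyp3a11 the motif began 198 bases upstream of the start and in Cyp2c38 217 bases upstream. Both genes lie in arrays without any shared site.

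Of the 92 members, 22 (23.9%, exact Clopper-Pearson 95% interval 15.6 to 33.9, counting error only) had a shared site, while 60.6% of all protein-coding genes did. The median member had 0 sites and the median protein-coding gene 1. The median length of the members was 21392.5 bp, beside 17169 bp for all protein-coding genes, with 23967 bp for members in clusters, 14189 bp for lone members and 4430 bp for the Cyp2d genes. The bound members held 38 different sites, and 29 of these (76.3%) lay inside a member, beside 87.6% of sites at protein-coding genes in general. A bound member had a median of 1 site and a bound protein-coding gene 2. Of the 70 unbound members, 61 had no summit of either replicate in the window and 9 had a summit of replicate 1, but no shared site. Exons, introns and UTRs are not separated in the gene table used, so sites are placed only relative to gene ends.

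**Figure D1:**
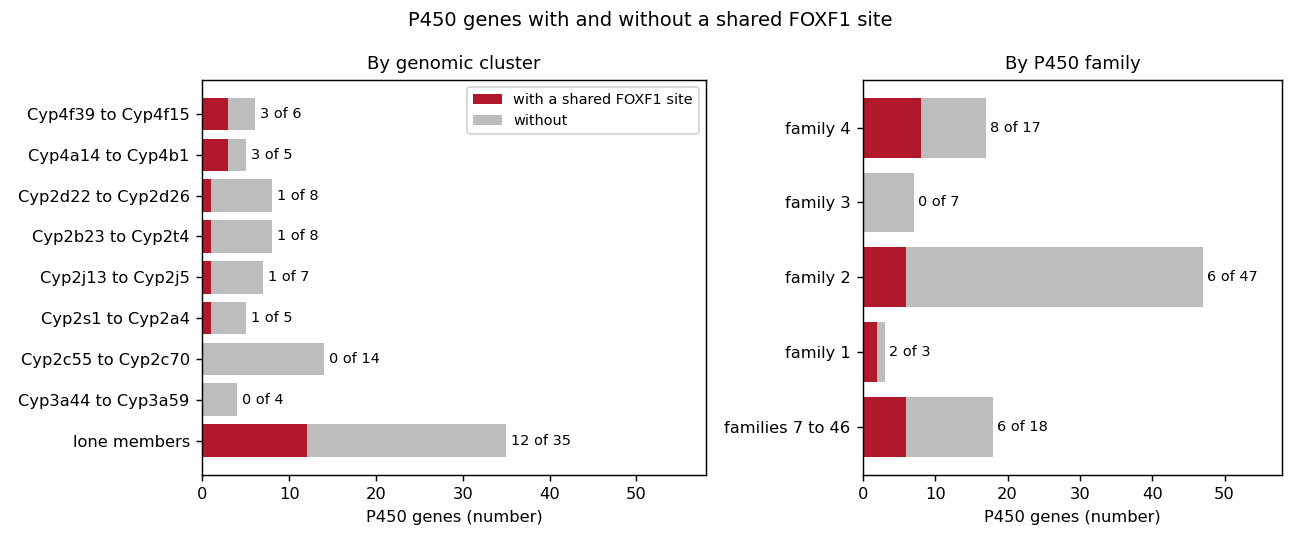
Number of cytochrome P450 genes with (red) and without (grey) a shared FOXF1 site, by genomic cluster on the left and by P450 family on the right, with the x axis counting genes and the number bound written beside each bar. Family 4 holds 8 of the 22 bound genes, and the clusters Cyp2c55 to Cyp2c70 and Cyp3a44 to Cyp3a59 hold none.

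The bound members were spread unevenly over the families. Family 4 had sites at 8 of 17 genes (47.1%), family 1 at 2 of 3, family 2 at 6 of 47 (12.8%), family 3 at 0 of 7, and families 7 to 46 at 6 of 18 (33.3%). Grouped by what the enzymes act on, sites were found at 6 of 48 genes for foreign compounds (12.5%) and at 9 of 25 for fatty acids and eicosanoids (36%). The smaller roles had sites at 2 of 4 vitamin D genes, 1 of 3 retinoic acid genes, 2 of 6 bile acid and oxysterol genes and 1 of 6 steroid hormone genes. Genes were placed by subfamily, so Cyp2c23, which acts on arachidonic acid, counts with the foreign compounds. Moved to the fatty acids, it gives 5 of 47 and 10 of 26. The 14 unbound Cyp2c genes stayed with the foreign compounds. A bound gene alone was moved, so the wider gap between these shares follows from that choice. Also placed by subfamily, the bound gene Cyp4b1, which acts on inhaled toxicants, counts with the fatty acids, and it was not moved. Cyp27a1 counts in both the vitamin D and the bile acid group, and Cyp20a1, whose substrate is not known, in none. Each of these shares other than that of family 1 lies below the 60.6% of all protein-coding genes, and the intervals of the small groups are wide: 23.0% to 72.2% for family 4 and 9.43% to 99.2% for family 1.

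Among genes for foreign compounds, the highest site of any member lay inside Cyp2c23, an epoxygenase of arachidonic acid that carries a Cyp2c name but lies apart from the Cyp2c array. This site, at chr19:44008930, had scores of 245 and 107, and its mean score exceeded that of the highest site at 98.8% of bound protein-coding genes. A second Cyp2c23 site, at chr19:44021717, had scores of 31.3 and 6.67. Cyp2d22, the first gene of the Cyp2d array, held 3 sites inside the gene, with scores of 131 and 53.8 at chr15:82376947, 27.6 and 9.999 at chr15:82379100, and 12.9 and 4.76 at chr15:82380076. The highest of them ranked at percentile 86.6 of bound genes, and the lowest stood near the bottom of both lists of shared sites.

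Cyp1a1, which oxidises polycyclic aromatic hydrocarbons and is induced through the aryl hydrocarbon receptor, had 3 sites. The highest, at chr9:57688833, had scores of 109 and 51.4, and the next, at chr9:57691014, had 61.0 and 35.5. Both lay inside the annotated span of Cyp1a1, but 8780 and 6599 bp upstream of the start that the promoter table gives. They thus lay between the starts of Cyp1a1 and of its neighbour Cyp1a2, which point away from each other. The highest was nearer to the start of Cyp1a2. The last, with 54.8 and 43.7, lay 4771 bp beyond the other end and inside the neighbouring gene Edc3. Cyp1b1, a hydroxylase of oestrogens and hydrocarbons, had a single site 809 bp upstream of its start with scores of 14.1 and 4.57, at percentile 1.501 of the highest sites of bound genes. The airway gene Cyp2s1 had a site of 23.1 and 7.68, located 173 bp beyond the end of the gene and 14229 bp downstream of its start. The site counted for Cyp2t4 (16.1 and 7.50) lay 1672 bp outside that gene and inside Egln2, a prolyl hydroxylase gene, so it has a nearer candidate.

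Family 4 held the next highest sites. Cyp4f13, a fatty acid hydroxylase gene, had 3 sites, of which the highest, at chr17:32949594, had scores of 178 and 81.6 and lay 2233 bp upstream of the start. The site in the printed promoter, at chr17:32947331, had 106 and 67.6, and a site at the far end of the gene had 24.6 and 14.8. Cyp4b1, an enzyme of airway cells that activates several lung toxicants, had its highest site 4480 bp downstream of its start, at chr4:115643241, with 168 and 72.9. The site in the printed Cyp4b1 promoter was lower in both lists, with 40.3 and 27.8. In both genes, therefore, the site at the start was not the highest one.

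The other family 4 members had lower scores. The site of Cyp4a32, 1284 bp downstream of its start, had 91.6 and 35.5, and that of its neighbour Cyp4a31 had 33.1 and 15.5. Cyp4f17 and Cyp4f16 shared a site with 45.6 and 12.8 in the interval between them, 4111 bp from the former and 2276 bp from the latter. Cyp4f16 also had a site 65 bp downstream of its start, with 14.8 and 16.9, and Cyp4f17 an inner site with 8.28 and 7.64, the lowest site at any member by mean score. The site of Cyp4f39, which hydroxylates very long fatty acids for the skin lipid barrier, had 38.7 and 4.76, so it was mid-ranking in replicate 1 (percentile 42.8 of shared sites) and near the bottom in replicate 2 (percentile 1.92). Cyp4v3 had 22.2 and 11.1 at the printed promoter site, which also lay 3564 bp from Fam149a. Cyp2j6, an arachidonic acid epoxygenase of family 2, had a site with 17.4 and 16.97. It lay 108 bp downstream of the start that the promoter table gives, but 10762 bp inside the nearer annotated end of the gene.

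Among the genes for hormones and signals, Cyp26b1, which clears retinoic acid, had 3 sites inside the gene, with 39.9 and 25.9, 34.3 and 8.73, and 20.4 and 8.36. The other retinoic acid hydroxylase genes, Cyp26a1 and Cyp26c1, had none, and the site nearest to Cyp26a1 was 25967 bp away in Exoc6. Cyp24a1, which inactivates vitamin D, had a site of 47.9 and 15.5, and Cyp2r1, which makes its circulating form, had a site of 27.9 and 13.4 located 170 bp downstream of its start. Cyp27b1, which makes the active hormone, had no site, and Cyp27a1 had only a summit of replicate 1, with a score of 11.4. Cyp11a1, which starts steroid hormone synthesis from cholesterol, was counted for a site 4858 bp upstream with 62.0 and 22.9, the site closest to the 5 kb limit on its inner side.

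Cyp39a1, an oxysterol hydroxylase, had 5 sites, more than any other member. The highest, with 55.8 and 32.0, lay 81 bp outside Cyp39a1 and 77 bp outside the adjoining mitochondrial carrier gene Slc25a27, so it sits between the ends of both genes. The other sites were inside Cyp39a1, with replicate 1 scores from 25.1 to 45.97 and replicate 2 scores from 5.48 to 10.2. Cyp7b1, a further oxysterol hydroxylase, had a site with 21.2 and 10.2, located 28452 bp from the nearer end of a gene of 171947 bp. Cyp20a1, an orphan P450, had sites of 98.9 and 32.5 inside the gene and of 42.2 and 33.7 in the printed promoter. The promoter site was lower than the inner one in replicate 1 and slightly higher in replicate 2, so their order is not settled by these lists.

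**Figure D2:**
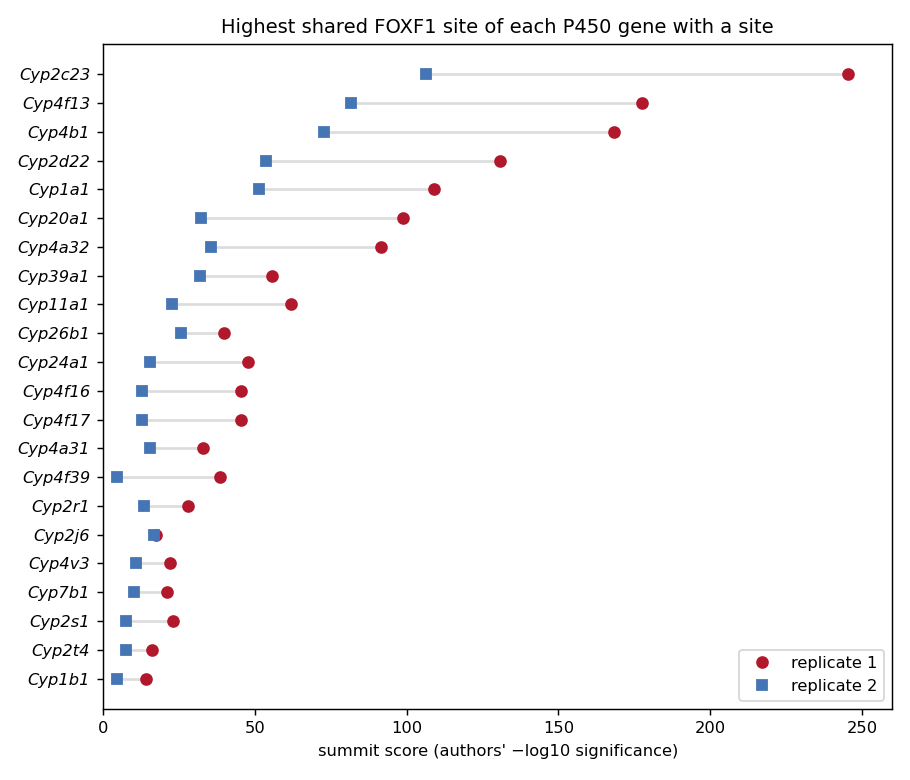
Score (x axis, the authors' −log10 significance) of the highest shared site of each of the 22 bound P450 genes, with replicate 1 as red circles and replicate 2 as blue squares joined by a line. Cyp2c23 is highest in both replicates at 245 and 107, followed by Cyp4f13 and Cyp4b1, and replicate 1 lies to the right for every gene, by little at Cyp2j6.

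Over the 22 bound members, the median of the highest site's mean score was 30.4, beside 45.0 for bound protein-coding genes. Its median percentile among shared sites was 51.6 beside 61.1 in replicate 1 and 43.5 beside 72.2 in replicate 2. Bound members had fewer sites from which the highest was taken (median 1, beside 2). With only the 10000 highest summits of each list, 5 members were bound (Cyp2c23, Cyp4f13, Cyp4b1, Cyp2d22 and Cyp1a1), or 5.43%, beside 13.2% of protein-coding genes. With the summits of a single list, without asking for a partner, 23 members had one in replicate 2 (25%, beside 65.6% of protein-coding genes) and 31 in replicate 1 (33.7%, beside 71.6%). The member added by replicate 2 was Cyp2j9. Its summits of both replicates, with scores of 89.3 and 38.2, lay 121 bp apart and so missed the 100 bp rule for shared sites. With a window of 20 kb in place of 5 kb, 38 members were bound (41.3%, beside 70.8%).

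The remaining genes nearest to the 5 kb limit were Cyp1a2, Cyp2w1 and Cyp46a1. Cyp1a2, the neighbour and relative of Cyp1a1, had its nearest site 5013 bp away, with scores of 55.8 and 31.1. The highest site counted for Cyp1a1 lay on the other side of Cyp1a2, also beyond 5 kb. The nearest site of Cyp2w1, 5132 bp away with 95.4 and 48.0, lay inside another gene. The nearest site of Cyp46a1, which hydroxylates brain cholesterol, was 5797 bp away with 37.6 and 10.9, closest to Eml1.

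Members were also counted by their position in the genome. Joining members with gaps of at most 200 kb gave 8 clusters of at least 3 members, holding 57 of the 92. In clusters 10 of 57 members were bound (17.5%, interval 8.75 to 29.9), and outside clusters 12 of 35 (34.3%, interval 19.1 to 52.2), intervals that overlap. The intervals treat members as independent, though neighbours share site-free stretches, so they may be too narrow. Both shares lie below the 60.6% of protein-coding genes, but that of the lone members came near the background with a wider window. Within 20 kb 24 of 35 lone members were bound (68.6%, beside 70.8% of protein-coding genes), and by replicate 1 alone 19 of 35 (54.3%, beside 71.6%). At the first or last place of a cluster 5 of 16 members were bound, and between them 5 of 41. Over the 3985 kb of all clusters there were 18 shared sites, or 0.452 per 100 kb, beside 2.00 per 100 kb between the first and last sites of the chromosomes.

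The Cyp2c array on chromosome 19, from Cyp2c55 to Cyp2c70 (chr19:39006940-40187286), held 14 members and not a single summit of either replicate over its 1180 kb. It lay in a stretch of 1316 kb without shared sites, bounded by low sites in the helicase gene Hells (12.7 and 7.78) and the cytoskeletal gene Pdlim1 (30.5 and 7.78). Only 189 of the 50992 intervals between neighbouring shared sites were longer. The Cyp3a array on chromosome 5, from Cyp3a44 to Cyp3a59 (chr5:145773983-146114978), likewise had no summit of either replicate. It lay in a stretch of 941 kb that holds 8 protein-coding Cyp3a genes, 6 of them members by the form of their symbol, between sites in Zscan25 (32.8 and 29.4) and Rnf6 (51.8 and 33.9). Cyp3a11, a drug-metabolising gene of adult liver, is among them. Cyp3a57 and Cyp3a16 lie in the same stretch but more than 200 kb from Cyp3a44, so they count as lone. The genes between, Cyp3a41a and Cyp3a41b, are not members by the form of their symbols.

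On chromosome 7 the genes of the Cyp2a, Cyp2b, Cyp2f and Cyp2g subfamilies shared a stretch of 1319 kb with 12 members from Cyp2b10 to Cyp2t4, which spans part of the cluster Cyp2s1 to Cyp2a4 and the whole cluster Cyp2b23 to Cyp2t4. Several of these genes are known from the lung. Cyp2f2, an enzyme of club cells that activates naphthalene, was 26576 bp from its nearest site, Cyp2b10, a target of the receptor Nr1i3, was 56494 bp away and Cyp2a5, a coumarin hydroxylase, was 316972 bp away. The site nearest to Cyp2f2 and Cyp2a5 was the Egln2 site named above, with 16.1 and 7.50. Cyp2e1, the ethanol-inducible P450, lies elsewhere on chromosome 7 and was nearer to a site, at 7154 bp (54.9 and 24.3), with a replicate 1 summit of 13.7 located 96 bp outside the gene.

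In 2 further arrays the sites stood at a single gene. In the Cyp2d array, Cyp2d22 to Cyp2d26 (chr15:82370527-82794452), all 3 shared sites lay inside Cyp2d22, and the other 7 genes lay in a stretch of 520 kb without sites. In the Cyp2j array, Cyp2j13 to Cyp2j5 (chr4:96042660-96664171), the only shared site was the Cyp2j6 site described above. In this array 4 genes from Cyp2j13 to Cyp2j8 lay in a stretch of 586 kb without sites. The Cyp2j9 summits that missed the 100 bp rule lie in the same array. In all, 43 of the 92 members (46.7%) lay in site-free stretches of at least 500 kb, beside 14.4% of protein-coding genes. The members lay in only 5 such stretches, beside 406 for all protein-coding genes, so the 43 are not independent counts. Of these 43, Cyp2t4 was bound, through the site at the end of its stretch. The median interval between neighbouring shared sites was 14264 bp.

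The family 4 arrays, as cut by the 200 kb rule, had more sites for their length. The array from Cyp4a14 to Cyp4b1 (chr4:115486200-115647721) held 6 sites in 162 kb, or 3.71 per 100 kb (exact Poisson 95% interval 1.36 to 8.09), and 3 of its 5 members, Cyp4a31, Cyp4a32 and Cyp4b1, were bound. A high site of this array, at chr4:115546371 with 116 and 54.3, lay between Cyp4a10 and Cyp4a31 and beyond 5 kb of both. The array from Cyp4f39 to Cyp4f15 (chr17:32452697-32703352) held 5 sites in 251 kb, or 1.99 per 100 kb (interval 0.648 to 4.66), and 3 of its 6 members were bound, all at the Cyp4f39 side. Cyp4f14 and Cyp4f13 lie 200004 bp beyond Cyp4f15, just past the 200 kb rule, and count as lone. With a gap of 250 kb the array ran from Cyp4f39 to Cyp4f13 with 4 of 8 members bound, and 11 of 61 clustered and 11 of 31 lone members were bound. These intervals cover counting error only. The Cyp2d array had 0.708 per 100 kb (0.146 to 2.07), the array Cyp2s1 to Cyp2a4 0.585 (0.121 to 1.71) and the Cyp2j array 0.161 (0.00407 to 0.896). The Cyp4f interval overlaps all of these. The Cyp4a interval overlaps those of the Cyp2d and Cyp2s1 to Cyp2a4 arrays but not that of the Cyp2j array. The Cyp2c, Cyp2b23 to Cyp2t4 and Cyp3a44 to Cyp3a59 arrays had no site inside them, with upper limits of 0.313, 0.748 and 1.08. The Cyp4a interval lies above these limits, and the Cyp4f interval only above that of the Cyp2c array. The genome-wide 2.00 per 100 kb lies within the intervals of the Cyp4f and the Cyp4a arrays and of the Cyp2d array. Cyp4a12a, Cyp4a12b and Cyp4a30b, unbound genes next to the Cyp4a array, are left out of it by the form of their symbols. They lie between the members Cyp4a29 and Cyp4a14. With a gap of 250 kb this array ran from Cyp4x1 to Cyp4b1, with 3 of 7 members bound. Its density over that longer span was not computed, so the 3.71 per 100 kb holds only for the shorter one.

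**Figure D3:**
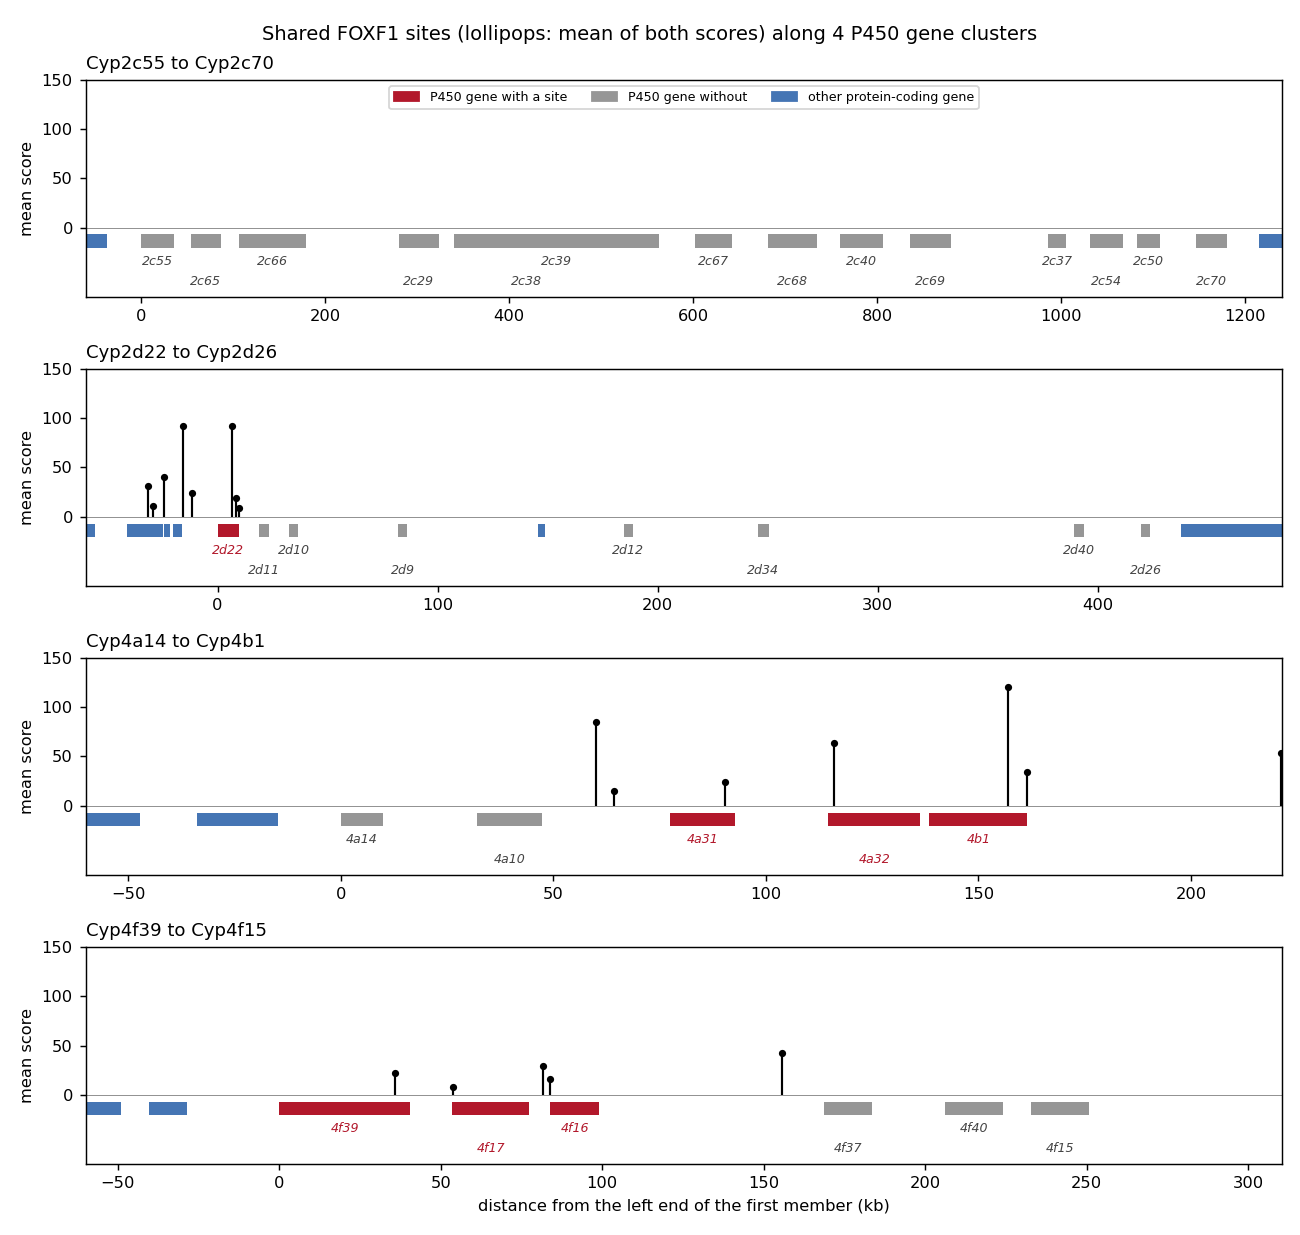
Maps of 4 P450 clusters, with distance from the left end of the first member in kb on the x axis and the mean score of each shared site as a lollipop; boxes below the axis are bound P450 genes (red), unbound P450 genes (grey) and other protein-coding genes (blue). The Cyp2c array has no site over 1180 kb, the Cyp2d sites inside the array stand in Cyp2d22 alone, and the Cyp4a14 to Cyp4b1 array has 6 sites.

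The distance from an unbound member to its nearest shared site also differed between clustered and lone genes. Its median over the 70 unbound members was 76657 bp, with a range of 5013 to 598381 bp, beside 56073.5 bp for the 8626 unbound protein-coding genes. In clusters the median was 173615 bp over 47 unbound members, and outside them 19702 bp over 23. More than 100 kb from any site were 31 of the 47 and 1 of the 23. That 1 lone gene was Cyp3a16, which lies in the site-free Cyp3a stretch and is lone only by the rule for members. Where such genes are placed therefore affects the contrast between clustered and lone genes. Over all unbound members this share was 45.7%, beside 39.1% of unbound protein-coding genes.

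**Figure D4:**
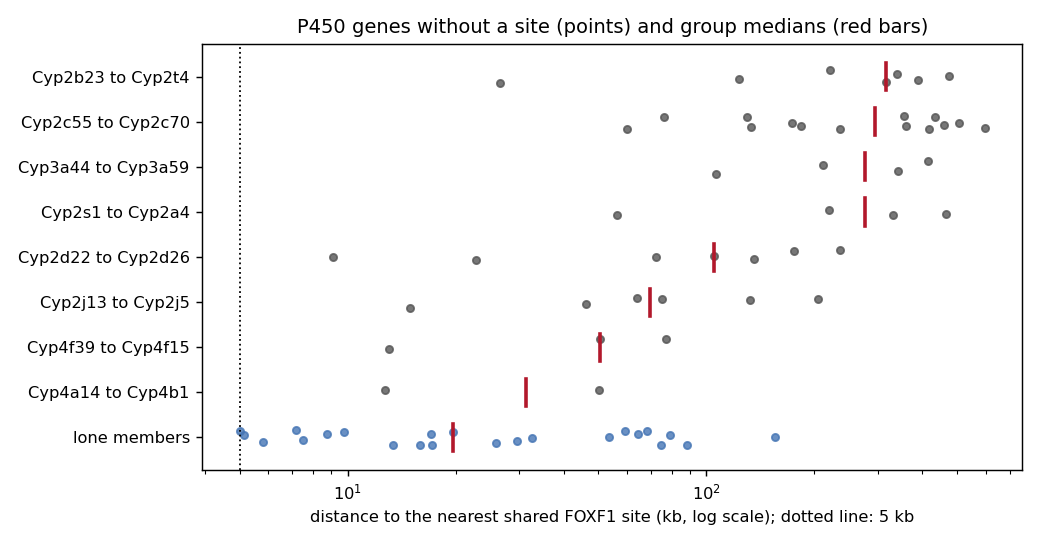
Distance from each unbound P450 gene to the nearest shared FOXF1 site (x axis, kb, log scale) by cluster, with grey points for genes in clusters, blue points for lone genes, red bars for group medians and a dotted line at 5 kb. Lone genes have a median of 19702 bp and reach down to 5013 bp, while most genes of the Cyp2b, Cyp2c and Cyp3a arrays lie beyond 100 kb.

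The members' promoters also differ from other promoters in composition. A promoter was called CpG-rich when its GC content was at least 50% and its observed count of CG was at least 0.6 of that expected from its C and G. Of the 82 member promoters, 6 (7.32%) were CpG-rich, beside 45.1% of 21263 promoters of protein-coding genes. They belonged to Cyp20a1, Cyp1b1, Cyp2r1 and Cyp4v3, which were bound, and to Cyp26a1 and Cyp46a1, which were not. None of the 52 promoters of clustered members was CpG-rich. Shared sites lay in 36.1% of CpG-rich promoters and 7.55% of the others genome-wide, and in 2 of the 6 CpG-rich and 2 of the 76 other member promoters (2.63%). How much of the low count of bound members goes with promoter composition was not tested. Among bound members with a promoter entry, 7 of 15 (46.7%) had a site within 250 bp of a start given there, beside 60% of 10586 bound protein-coding genes.

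The letters TGTTTA, the core of a forkhead motif, were searched on both strands, and the longer TGTTTAC, which contains TGTTTA, likewise. TGTTTA was present in 0 of 16 promoters of bound members and in 12 of 66 of unbound members (18.2%), beside 11.5% of all promoters. TGTTTAC was present in 0 of 16 and 7 of 66 (10.6%), beside 3.01%. The letters are rich in A and T, and the promoters differ in composition. Median GC content was 56.3% for bound members, 48.5% for unbound members and 56.3% for all promoters. How far the motif counts go with composition was not tested. Only 4 of the 16 promoters of bound members held a site, so the counts do not compare bound with unbound promoters. The 7 promoters belonged to Cyp2c38, Cyp2c39 (2 promoters), Cyp2j5, Cyp3a11, Cyp3a16 and Cyp3a44. Apart from Cyp2j5 they come from related copies, with a best promoter identity of 82.0% for Cyp2c38 and Cyp2c39, 94.7% for Cyp3a16 and Cyp3a44 and 79.0% for Cyp3a11, so they are not independent counts. A match is only a run of letters in this window, and the bases under the sites outside promoters were not read.

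Genes in arrays resemble each other, and reads from near-identical copies may not be placed uniquely. The best identity of a promoter to that of another member was at least 90% for 9 of 41 unbound clustered members, for 2 of 16 unbound lone members and for 0 of 15 bound members, with medians of 82.0%, 62.7% and 62.7%. Members of different families also reached about the lower level, such as Cyp20a1 with Cyp2r1 (62.3%) and Cyp1b1 with Cyp3a25 (61.0%). A value near 62.7% thus does not mark a promoter as a copy. The treatment of such reads was not stated in the sources used here, and its part in the site-free arrays was not tested.

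Genes that work with P450 enzymes, and 3 P450 genes with other names, were read the same way from lists chosen by function. The lists were chosen with earlier results of these data known, so their counts are a description and not a test. Of the 38 genes found, 28 (73.7%) were bound, and of the 35 that are not P450 genes 26 (74.3%), beside the 60.6% of protein-coding genes. All 4 genes of heme handling (Alas1 and Fech of heme synthesis, Hmox1, which degrades heme, and the heme-binding Pgrmc1) were bound, led by Alas1, the rate-limiting enzyme of heme synthesis, with 3 sites and highest scores of 181 and 81.3. Of 6 electron donors 5 were bound, including Por, the reductase that serves microsomal P450 enzymes, with 4 sites and 64.1 and 64.5 at the highest, and Fdxr was not. Of 15 sensors and regulators 12 were bound. Ahr, the aryl hydrocarbon receptor that induces Cyp1a1, had 9 sites and 187 and 93.1 at the highest, and Rxra, a partner of many nuclear receptors, had 8 sites. Nr1i2 and Nr1i3, the receptors that induce Cyp3a and Cyp2b genes, and Rxrg had none. Of 10 conjugation and epoxide hydrolysis genes 5 were bound. Of the P450 genes with other names, Tbxas1, the thromboxane synthase, had 15 sites (268 and 147 at the highest) and Ptgis, the prostacyclin synthase, had 6 (135 and 63.4). Cyp51, which acts in cholesterol synthesis, had none.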

How the data were processed

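FOXF1 peak summits of 2 replicates of whole lung were used. The authors called peaks with MACS2 on mm10, per the submitters' processing notes, and the names of the peaks show that the input was the control for both replicates. The deposited score of a summit is a −log10 of a p or q value; the sources used here do not say which, nor do they give the MACS2 version and options, aligner, treatment of duplicate and multiply placed reads, or depth. Such scores depend on depth, so they rank sites only within a list, and a mean of both scores only orders sites.

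Mitochondrial summits, 10 and 6 in number, were set aside. Gene ends came from a RefSeq table and promoters from RefSeq, both on GRCm38.p6. Sites, distances, gaps and promoter features were computed in Python 3.11.15 with numpy 2.4.6, pandas 2.3.3, scipy 1.17.1 and Biopython 1.88. Of these steps, the pairing of summits and the counting of sites at genes were checked on simulated data. Identity of promoters came from pairwise alignment; it replaced the planned identity of proteins and was added after seeing the data. There is 1 group of samples, so no test between groups was made.

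The members and lists were chosen with earlier results of these data known. Named are every bound member, the 3 unbound members closest to the 5 kb limit, the first and last member of each cluster, and members known from the lung; other members, and single genes of the function lists, were named after their values were seen. Alternatives changed the shared distance, window, score minimum, cluster gap, member list and the need for both replicates.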

Additional observations from a re-analysis of the deposited data

How the results depend on the processing

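No paired analysis was possible because there is 1 group of 2 replicates and no test. Of 68 recomputed summary values, 57 stayed within 1.5 times or the replicate spread. With a 20 kb window 38 members were bound, 24 of them lone. With the 10000 highest summits of each list 5 members were bound, 2 clustered and 3 lone, the median highest site rose to 120.6, the clusters held 0.100 sites per 100 kb, unbound members lay a median of 246762 bp from a site, and 7 partner genes were bound. Leaving out a replicate gave 23 to 31 bound members, 11 to 12 clustered, 12 to 19 lone, 0.502 to 0.728 sites per 100 kb, a median distance of 75277 to 75976 bp and 31 to 35 partner genes, the highest counts being without replicate 2. A shared distance of 50 bp lost Cyp11a1 and Cyp1b1 (20 bound) and 200 bp added Cyp2j9 (23). Counting only sites inside genes left 18, a 1 kb window 20 and a score of at least 10 in both lists 18. The share of all protein-coding genes was taken only for the main rule, the 20 kb window, the 10000 highest summits and the single replicates. Counts under the other settings therefore stand without a background. Clusters joined at 100 kb held 9 bound of 51 members and at 500 kb 13 of 66. With Cyp51, Ptgis and Tbxas1 added, 24 of 95 were bound. Chosen after seeing the data were a cluster gap of 250 kb (11 clustered and 11 lone bound), the nearest gene end within 100 kb (27 bound), 6 more symbols (23 of 98) and members with a promoter entry (15 of 72). Of 125 values for the highest mean score of single genes, 9 at 7 genes moved by over 1.5 times. With the 20 kb window it was 128 at Cyp1a1, 25.1 at Cyp1b1, 105 at Cyp2s1 and 85.3 at Cyp4a31. With sites inside genes only it was 27.8 instead of 43.9 at Cyp39a1, and, also within 1 kb, 7.96 at Cyp4f17 and 15.8 at Cyp4f16 instead of 29.2. The highest site needs both scores, so it has no value without a replicate, and promoter features do not depend on these settings. Depth is not given, so a missing site may lie under the authors' threshold.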

Other observations

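P450 genes outside the name pattern were read as well. Of 34 P450 pseudogenes, 2 (5.88%) were bound, Cyp4b1-ps1 in the Cyp4a14 to Cyp4b1 array and Cyp4f41-ps beside Cyp4f13, while 12.5% of 10609 annotated pseudogenes were. Of 6 protein-coding P450 genes whose symbol has another form (Cyp2ab1, Cyp4a12a, Cyp4a12b, Cyp4a30b, Cyp3a41a and Cyp3a41b) only Cyp2ab1 was bound, with 2 sites.

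Some sites near members fell outside the rule. Upstream of Cyp2s1, beyond 5 kb but nearer to Cyp2s1 than to other protein-coding genes, lay sites at chr7:25827349 (12.7 and 4.11), chr7:25835737 (139 and 70.9) and chr7:25841164 (55.3 and 19.6). The second of these scored higher in both lists than the site counted for Cyp2s1. Between Cyp4f16 and Cyp4f37, a site at chr17:32608294 had scores of 59.7 and 25.2. Summits of replicate 1 with no partner were found at Cyp2u1 (3 summits, the highest with 18.4), Cyp4x1 (14.1), Cyp46a1 (2 summits, the higher with 10.2), Cyp4f37 (10.2), Cyp7a1 (7.76) and Cyp4f18 (5.05).

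Long non-coding genes overlap some of the members' sites. Gm41581 holds 3 of the 5 Cyp39a1 sites, and Gm30504 holds the Cyp4v3 site.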
